A study of Mus musculus with 3 samples.

Results

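The enzymes that prepare and form collagen crosslinks were followed in the newborn mouse aortic valve: the 5 lysyl oxidase genes Lox, Loxl1, Loxl2, Loxl3 and Loxl4, and the 3 lysyl hydroxylase genes Plod1, Plod2 and Plod3. They were taken by symbol, 8 of the 36167 features in the deposited tables. Aortic valve structures of mouse pups at postnatal day 1 were flash frozen and pooled, with 22 to 24 aortic roots in each of 3 pools, and RNA of single nuclei was read by the gene expression side of 10x Genomics Multiome. All pups carried the strain label B6.Cg-Scx<tm1.1(EGFP)Skom, an allele that places EGFP, a green fluorescent protein, at Scx, the gene of the tendon and valve transcription factor scleraxis. Whether 1 or both copies of Scx carried it was not given, and no pups without the allele entered the analysis. The pools were replicates of 1 group, so no treatment or genotype was compared, and each comparison below is between classes of nuclei of the same pools.

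Fibrillar collagen gains its strength outside the cell, when neighbouring molecules are joined through lysines. Inside the endoplasmic reticulum the lysyl hydroxylases add a hydroxyl group to chosen lysines of the new chains: PLOD1 acts mainly on the triple helix, PLOD2 on the short telopeptides at the ends, and PLOD3 also carries a glucosyltransferase activity. Outside the cell, the copper-dependent lysyl oxidases turn lysines and hydroxylysines of collagen, and lysines of elastin, into aldehydes that then form crosslinks. In a semilunar valve these reactions serve both the collagen-rich layer and the elastin-rich layer of the cusps, and the elastic wall of the root beneath them.

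The nuclei with at least 1000 UMIs (counted RNA molecules), at least 300 genes and at most 5% mitochondrial UMIs, after removal of marked doublets, numbered 6459, 3078 and 3593 in pools 1, 2 and 3. They held 33988702, 17462831 and 18301619 UMIs, with medians of 4288, 4771 and 3346 per nucleus. Clusters were named "-like" from marker genes, with the 8 enzyme genes and their pathway kept out of the clustering. Of 27 clusters, 22 were named and 5, with 20.6% to 21.6% of the nuclei of a pool, were not. The endothelial-like class had 2749 nuclei, the smooth muscle-like 2227, the cardiomyocyte-like 1822, the valve interstitial-like 1491, the fibroblast-like 982, the mesothelial-like 370, the macrophage-like 281, the pericyte-like 207 and the lymphatic endothelial-like 119. The valve interstitial markers served to name the class, so their high level in it is given as a description. Their sum there was 5329 to 6780 CPM (a gene's UMIs scaled to a fixed total per library). The highest mean among the other classes in the fit was 969 CPM, in the mesothelial-like class. It was 526 CPM in the fibroblast-like and 40.6 CPM in the smooth muscle-like class.

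Beside the named classes stood an unnamed cluster led by the haemoglobin genes Hbb-bt and Hbb-bs (719 nuclei, median 2120 UMIs). It held the cardiomyocyte markers at a sum of 25265 CPM and the smooth muscle markers at 3074 CPM together with erythroid markers at 23817 CPM, and it read Lox at 327, 231 and 84.1 CPM and Loxl1 at 276, 233 and 112 CPM in pools 1, 2 and 3. It stayed out of the tests, and its part in the levels of other classes was not tested. Cardiomyocyte-like nuclei, with Lox at 7.8 to 16.9 CPM, had the lowest Lox mean of the named classes and are used below for comparison. How much RNA of these genes was picked up from outside a nucleus was not tested in any class. Over all analysed nuclei, pool 3 was the lowest of the 3 pools for Lox, Loxl1, Loxl2, Plod1 and Plod3, and its Lox level was 76.4 CPM against 144 and 130 CPM. This order of the pools did not hold in every class: in the pericyte-like class pool 2 had the lowest Lox level, 82.7 CPM.

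All 7 members that passed the filter on low counts differed among the 9 classes (edgeR, quasi-likelihood, adjusted by Benjamini-Hochberg for 13821 genes), a result shared by 89.8% of all genes tested. Loxl4, with 76 UMIs in all analysed nuclei, did not pass that filter. The levels of each gene are best read across classes, since UMIs of different genes also depend on their lengths. A log2 difference below compares a class with the mean of the other 8 classes unless a second class is named, its error is the standard error, and a member is said to be higher or lower only where the edgeR adjusted p was under 0.05.

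**Figure D1:**
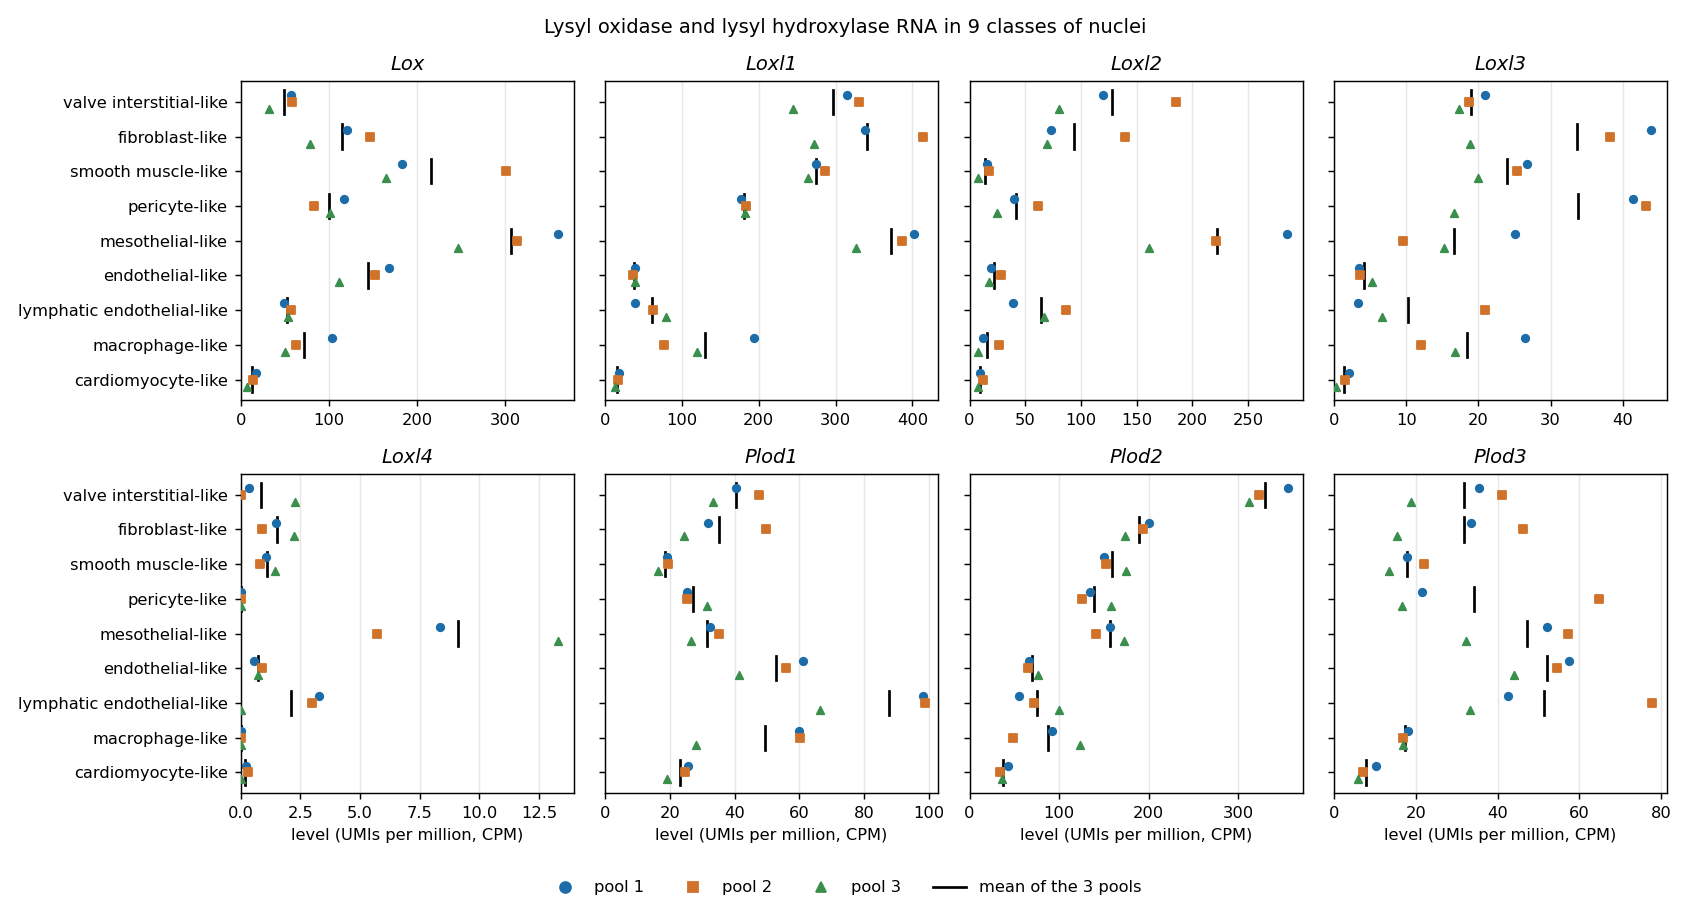
Level of each of the 8 enzyme genes (x axes, CPM, linear and different for each gene) in 9 classes of nuclei (y axes), with 1 symbol per pool and a black bar at the mean of the 3 pools. The 3 valve interstitial-like points lie to the right of all other classes for Plod2, the endothelial-like points are far to the right of the cardiomyocyte-like ones for Lox, and pool 3 is often the leftmost symbol for Lox and Loxl2.

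Among the hydroxylases, Plod2 was highest in the interstitial cells of the valve. Its level was 356, 324 and 312 CPM in the valve interstitial-like nuclei of the 3 pools, a mean of 330 ± 22.8 CPM (SD, n = 3 pools), and the lowest of these lay above every pool of the other 8 classes in the fit. Next were the fibroblast-like class with 189 ± 13.6 CPM and the smooth muscle-like class with 159 ± 13.6 CPM, whose ranges overlapped at their ends, followed by the mesothelial-like with 157 ± 15.8 CPM and the pericyte-like with 140 ± 16.3 CPM, which overlapped the smooth muscle-like range. Endothelial-like nuclei had 69.2 ± 6.2 CPM and cardiomyocyte-like nuclei 37.9 ± 4.6 CPM.

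Plod2 was higher in valve interstitial-like nuclei by 1.64 ± 0.10 on the log2 scale (adjusted p = 1.6e-14). The difference was 0.81 ± 0.14 against fibroblast-like nuclei (adjusted p = 7.1e-05), 0.93 ± 0.14 against smooth muscle-like nuclei (adjusted p = 3.9e-06) and 2.29 ± 0.15 against endothelial-like nuclei (adjusted p = 4.7e-14). After each nucleus was thinned to 1000 UMIs, the share with a Plod2 UMI was 26.8% ± 2.2 (SD over 3 pools) in the valve interstitial-like and 3.77% in the cardiomyocyte-like class. Without thinning, the shares were 54.7% and 17.4% at median depths of 3596 and 5539 UMIs.

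Plod1 and Plod3 had another order. Among the 9 classes in the fit, Plod1 was lowest in smooth muscle-like nuclei, with 16.4 to 19.6 CPM, and reached 52.9 ± 10.2 CPM (41.5 to 61.3) in endothelial-like and 87.9 ± 18.5 CPM (66.5 to 98.8) in lymphatic endothelial-like nuclei, whose ranges did not overlap. The lymphatic endothelial-like value rested on 73 UMIs in 119 nuclei. Erythroid markers in that class summed to 272 to 24404 CPM over the pools, and their part in its levels was not tested. Plod3 was 57.5, 54.5 and 44.0 CPM in the endothelial-like nuclei of the 3 pools, above every pool of the smooth muscle-like class (13.5 to 22.0 CPM) and of the valve interstitial-like class (18.9 to 41.0 CPM). The lymphatic endothelial-like mean for Plod3, 51.2 ± 23.5 CPM, and the mesothelial-like mean, 47.2 ± 13.2 CPM, could not be separated from the endothelial-like one by their spread.

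In the endothelial-like class Plod3 was higher by 0.94 ± 0.13 (adjusted p = 5.4e-07) and Plod1 by 0.50 ± 0.09 (adjusted p = 2.2e-05), while Plod2 was lower by 0.94 ± 0.12 (adjusted p = 1.0e-07). In the smooth muscle-like class Plod1 was lower by 1.05 ± 0.13 (adjusted p = 9.0e-08) and Plod3 by 0.66 ± 0.18 (adjusted p = 4.0e-03), while Plod2 was higher by 0.60 ± 0.11 (adjusted p = 5.1e-05). Plod2 was also higher in the fibroblast-like class, by 0.73 ± 0.11 (adjusted p = 5.8e-06). The Plod3 call in smooth muscle-like nuclei was lost without replicate 1 (adjusted p = 0.146). In the valve interstitial-like class neither Plod1 (0.06 ± 0.12, adjusted p = 0.776) nor Plod3 (0.16) passed the test, though both did with only 5 classes in the fit (0.31 and 0.43, adjusted p = 0.0492 and 0.0237).

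The stretches upstream of Plod1 and Plod3 are shown because these 2 genes were both higher in the endothelial-like and both lower in the smooth muscle-like class. They come from RefSeq on build GRCm38.p6, which is not the build named in the submitters' processing notes, and promoter entries matched 3 of the 8 members. Each is the 250 bases before the annotated start, 5′ to 3′ on the gene's strand, for Plod1 at chr4:147936777-147937026 (minus strand) and for Plod3 at chr5:136986769-136987018 (plus strand). Capitals mark GGGCGG or its reverse complement, the core of the GC box bound by SP1-type factors.
Plod1: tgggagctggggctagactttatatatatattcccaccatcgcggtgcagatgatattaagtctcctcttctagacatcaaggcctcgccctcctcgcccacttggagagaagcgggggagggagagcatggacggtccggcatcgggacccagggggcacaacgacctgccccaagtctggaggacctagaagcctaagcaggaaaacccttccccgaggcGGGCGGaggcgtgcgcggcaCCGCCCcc
Plod3: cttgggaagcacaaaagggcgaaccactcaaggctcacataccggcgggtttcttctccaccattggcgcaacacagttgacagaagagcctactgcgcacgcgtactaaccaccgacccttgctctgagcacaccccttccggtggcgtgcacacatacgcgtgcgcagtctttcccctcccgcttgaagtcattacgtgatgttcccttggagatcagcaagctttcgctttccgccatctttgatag
The Plod1 window held 2 such matches and had a GC content of 61.6%, while the Plod3 window held 0 matches and had a GC content of 55.6%. The motif was present, on either strand, in 32.7% of 32851 mouse promoter windows of this length, whose median GC content was 52.4%. A match is a run of letters and was not tested as a binding site.

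Among the oxidases, Lox itself was low in valve interstitial-like nuclei and high in the mesothelial-, smooth muscle- and endothelial-like classes. In valve interstitial-like nuclei its level was 57.3, 57.8 and 31.7 CPM, below every pool of the smooth muscle-like nuclei (183, 301 and 165 CPM), of the endothelial-like nuclei (168, 152 and 112 CPM) and of the fibroblast-like nuclei (120, 146 and 78.7 CPM). The highest mean was in the mesothelial-like class, 307 ± 57.0 CPM (247 to 360). The endothelial-like and smooth muscle-like ranges overlapped, as did those of the endothelial-like and fibroblast-like classes.

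Lox was lower in the valve interstitial-like class by 1.0 ± 0.16 (adjusted p = 6.0e-06), and higher in the smooth muscle-like class by 1.54 ± 0.12 (adjusted p = 5.2e-12) and in the endothelial-like class by 0.73 ± 0.12 (adjusted p = 9.2e-06). Compared directly, valve interstitial-like nuclei were lower than smooth muscle-like nuclei by 2.26 ± 0.18 (adjusted p = 1.5e-11), than endothelial-like nuclei by 1.53 ± 0.18 (adjusted p = 2.2e-08) and than fibroblast-like nuclei by 1.21 ± 0.19 (adjusted p = 1.5e-05). The difference of the fibroblast-like class from the mean of the others, 0.36 ± 0.14, did not pass (adjusted p = 0.0539), but passed under 4 alternatives, with a value of 0.62 for 5 classes in the fit (adjusted p = 2.1e-04).

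Endothelial Lox was set beside that of cardiomyocyte-like nuclei, the named class with the lowest Lox mean, and of the haemoglobin cluster. Thinned to 1000 UMIs, 10.5% ± 1.0 (SD, n = 3 pools) of endothelial-like nuclei had a Lox UMI, against 1.32% ± 0.47 of cardiomyocyte-like nuclei and 19.3% ± 8.8 of the haemoglobin cluster. The unthinned shares were 34.5% and 7.22% at median depths of 4461 and 5539 UMIs. Endothelial-like nuclei were higher in Lox than cardiomyocyte-like nuclei by 3.04 ± 0.20 (adjusted p = 2.0e-14), and by 2.31 with clusters drawn at a resolution of 2. Loxl1 in the same nuclei differed by 0.79 ± 0.21 (adjusted p = 1.6e-03), a call lost with up to 10% mitochondrial UMIs allowed (adjusted p = 0.0657) and at that resolution (0.19, adjusted p = 0.436).

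Loxl1, whose product acts on elastin and binds fibulin-5, had like levels in the 4 classes where it was highest. Its means were 372 ± 40.3 CPM in mesothelial-like, 341 ± 70.5 CPM in fibroblast-like, 297 ± 45.9 CPM in valve interstitial-like and 275 ± 10.6 CPM in smooth muscle-like nuclei, with ranges that overlapped between neighbours, and 37.9 ± 1.3 CPM in endothelial-like nuclei. Against the mean of the other classes it was higher by 1.51 ± 0.12 in fibroblast-like, 1.34 ± 0.12 in smooth muscle-like and 1.30 ± 0.12 in valve interstitial-like nuclei, and lower by 2.07 ± 0.16 in endothelial-like nuclei (edgeR adjusted p of 3.4e-10 or less in each). The valve interstitial- and smooth muscle-like classes differed by -0.03 ± 0.17, which did not pass and changed sign under 4 alternative settings.

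Loxl2, which is known for its part in basement membrane collagen IV, separated the interstitial cells from muscle. It was 120, 185 and 80.0 CPM in valve interstitial-like nuclei and 15.5, 17.1 and 7.8 CPM in smooth muscle-like nuclei, ranges far from touching, although the pools of the first class were themselves far apart. The mesothelial-like class was highest, with 223 ± 61.9 CPM, and the fibroblast-like class had 94.0 ± 39.3 CPM, overlapping the valve interstitial-like range. In fibroblast-like nuclei Loxl2 was higher by 1.25 ± 0.15 (adjusted p = 1.3e-07) and in endothelial-like nuclei lower by 1.12 ± 0.17 (adjusted p = 1.4e-06). Loxl2 was higher in valve interstitial-like nuclei by 1.78 ± 0.14 (adjusted p = 4.0e-12) and by 3.00 ± 0.22 against smooth muscle-like nuclei (adjusted p = 1.5e-12), and it was lower in the smooth muscle-like class by 1.60 ± 0.20 (adjusted p = 1.2e-07). Against fibroblast-like nuclei the difference was 0.47 ± 0.18, higher in each of the 3 pools but short of the threshold (adjusted p = 0.0784). It passed under 9 alternatives, and with up to 10% mitochondrial UMIs allowed it was 0.90 (adjusted p = 5.5e-06).

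Loxl3 and Loxl4 rested on few molecules, 1024 and 76 UMIs. Loxl3 was higher in fibroblast-like nuclei by 1.49 ± 0.22 (33.6 ± 13.1 CPM; adjusted p = 3.0e-06) and in smooth muscle-like nuclei by 1.06 ± 0.21 (24.0 ± 3.6 CPM; adjusted p = 1.5e-04), and lower in endothelial-like nuclei by 2.06 ± 0.27 (4.1 ± 1.0 CPM; adjusted p = 1.9e-07). In valve interstitial-like nuclei its difference of 0.54 ± 0.23 did not pass (adjusted p = 0.0765), though it did with 5 classes in the fit (1.08, adjusted p = 1.4e-04) and without the filter on low counts (0.0383). Its highest mean, 86.5 ± 34.2 CPM, came from 69 melanocyte-like nuclei with 26 UMIs, too few for the fit, where all 3 pools (60.3, 125 and 73.9 CPM) lay above every pool of the other classes. Of the 76 Loxl4 UMIs, 35 were in mesothelial-like nuclei, at 8.4, 5.7 and 13.3 CPM, and no other class had a mean above 2.1 CPM. The pericyte-like class had 0 Loxl4 UMIs in 207 nuclei, which allows a share of nuclei with a UMI of up to 1.45% at a thinned depth of 1000 UMIs, counting error only.

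**Figure D2:**
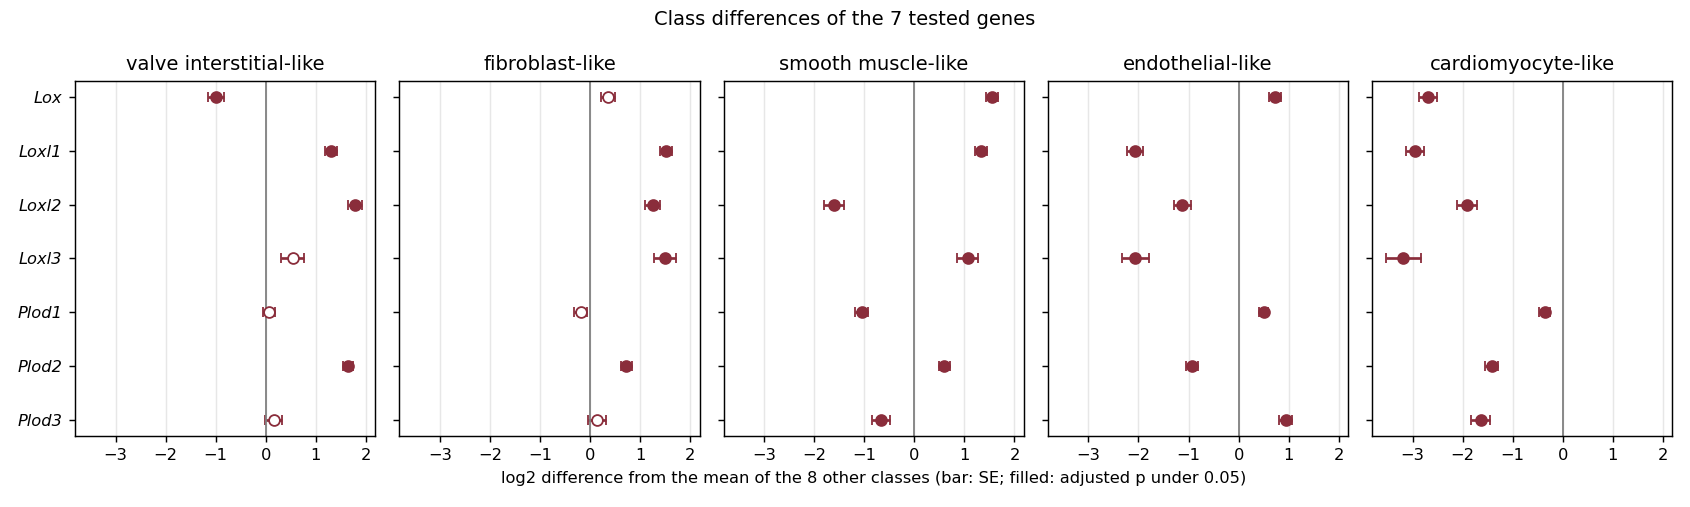
Log2 difference of each tested member (7 genes) between a class and the mean of the other classes, for 5 classes, with the standard error as a bar; filled points passed edgeR's adjusted p of 0.05 and open points did not. Plod2, Loxl1 and Loxl2 are to the right of 0 and Lox to the left in the valve interstitial-like class, while Lox, Plod1 and Plod3 are to the right in the endothelial-like class and all 7 are to the left in the cardiomyocyte-like class.

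Counted over the family, 3 of 7 members were higher and 1 lower in valve interstitial-like nuclei, where 18.0% of all genes tested were called higher and 15.7% lower. Fibroblast-like nuclei had 4 higher and 0 lower (16.7% and 10.8% of all genes), smooth muscle-like nuclei 4 and 3 (21.4% and 20.7%) and endothelial-like nuclei 3 and 4 (21.5% and 17.3%). Cardiomyocyte-like nuclei had 0 higher and 7 lower (32.7% and 34.1%). The members' median difference was 0.54 in the valve interstitial-like, 0.73 in the fibroblast-like and -1.91 in the cardiomyocyte-like class, beside all-gene medians of -0.01 for the first and -0.08 for the last.

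The 5 pairs of classes show which enzymes separated them. Between valve interstitial- and fibroblast-like nuclei, 1 member was higher in the former (Plod2) and 2 were lower (Lox and Loxl3), with 8.05% and 8.89% of all genes called in these directions. The Loxl3 difference of -0.85 ± 0.28 (adjusted p = 0.0294) was lost under 5 of the 14 alternatives: without the pool as a block (adjusted p = 0.0765), with DESeq2 (0.0811), without replicate 1 (0.401), without replicate 2 (0.142) and at 2000 UMIs (0.0961). Against smooth muscle-like nuclei 4 were higher (Loxl2, Plod1, Plod2 and Plod3) and 1 was lower (Lox), beside 15.5% and 14.1% of all genes. Plod1 differed there by 0.99 ± 0.16 (adjusted p = 1.1e-05) and Plod3 by 0.73 ± 0.23 (adjusted p = 0.0128), the latter lost without the block (0.0873) and without replicate 1 (0.278).

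Against endothelial-like nuclei the valve interstitial-like class had 4 members higher (Loxl1, Loxl2, Loxl3 and Plod2) and 3 lower (Lox, Plod1 and Plod3), beside 19.3% and 20.6% of all genes. The differences of the higher members were 3.00 for Loxl1, 2.58 for Loxl2, 2.31 for Loxl3 and 2.29 for Plod2. Plod1, lower by 0.39 ± 0.13 (adjusted p = 0.0121), lost its call without the block (0.145), without replicate 1 (0.461) and without the filter on low counts (0.137), and Plod3, lower by 0.70 ± 0.19 (adjusted p = 2.8e-03), lost it without the block (0.0518). Smooth muscle- and fibroblast-like nuclei differed in 4 members: Lox was higher in the former by 1.05 ± 0.17 (adjusted p = 1.3e-05), and Loxl2 (by 2.53), Plod1 (by 0.77) and Plod3 (by 0.71) were lower, beside 13.7% and 15.7% of all genes. The last 2 of these calls were lost without replicate 2 (adjusted p = 0.121 and 0.0818), and Plod3 also without replicate 1 (0.292), without the block (0.112), at 2000 UMIs (0.0511) and with 10% mitochondrial UMIs (0.201).

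Even the lowest class was not the same for every enzyme. In cardiomyocyte-like nuclei Loxl3 was lower by 3.19 ± 0.35, Loxl1 by 2.96 ± 0.18, Lox by 2.69 ± 0.18 and Loxl2 by 1.91 ± 0.20, and Plod3 by 1.64 ± 0.19 and Plod2 by 1.42 ± 0.13 (edgeR adjusted p of 9.9e-09 or less in each). Plod1 was lower by only 0.36 ± 0.11 (adjusted p = 5.1e-03), at 23.2 ± 3.5 CPM, higher than the smooth muscle-like nuclei of the same pool in each of the 3 pools. That call was lost without replicate 1 or replicate 2 (adjusted p = 0.12 in both), without the filter on low counts (0.130), with 5 classes (0.220) and with the Clca3a2 cluster as a class (0.0575). Compared with cardiomyocyte-like nuclei, endothelial-like nuclei were higher in 6 of 7 members, where 34.4% of all genes were called higher and 31.1% lower. The one without a call was Loxl3 (1.00 ± 0.47, adjusted p = 0.0649), and Plod3 was higher by 2.29 and Plod1 by 0.77. Loxl2 (0.70 ± 0.23, adjusted p = 0.0105) lost its call without the block (0.0780), without replicate 3 (0.0640) and at resolution 2 (0.130). Plod2 (0.43 ± 0.15, adjusted p = 0.0163) lost it under 6 of 14 alternatives, each left-out replicate among them (0.0515 to 0.138), and its difference was 0.09 (adjusted p = 0.604) with the unnamed Erc2-Lrrc4c cluster counted as cardiomyocyte.

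The make-up of each family moved with these differences. Lox supplied 68.7% ± 4.3 (SD, n = 3 pools) of all lysyl oxidase UMIs in endothelial-like nuclei, 40.1% ± 6.7 in smooth muscle-like, 19.5% ± 1.6 in fibroblast-like and 9.8% ± 1.4 in valve interstitial-like nuclei. Loxl2 supplied 25.3% ± 5.3 in valve interstitial-like and 2.5% ± 0.7 in smooth muscle-like nuclei. Among hydroxylase UMIs, the Plod2 share was 82.2% ± 3.6 in valve interstitial-like and 81.4% ± 3.6 in smooth muscle-like nuclei, which overlapped, and 40.0% ± 6.2 in endothelial-like nuclei. Plod3 supplied 29.8% ± 2.2 of them in endothelial-like and 7.8% ± 2.4 in valve interstitial-like nuclei. These shares describe the same gene across classes, since longer genes can yield more UMIs in nuclei.

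**Figure D3:**
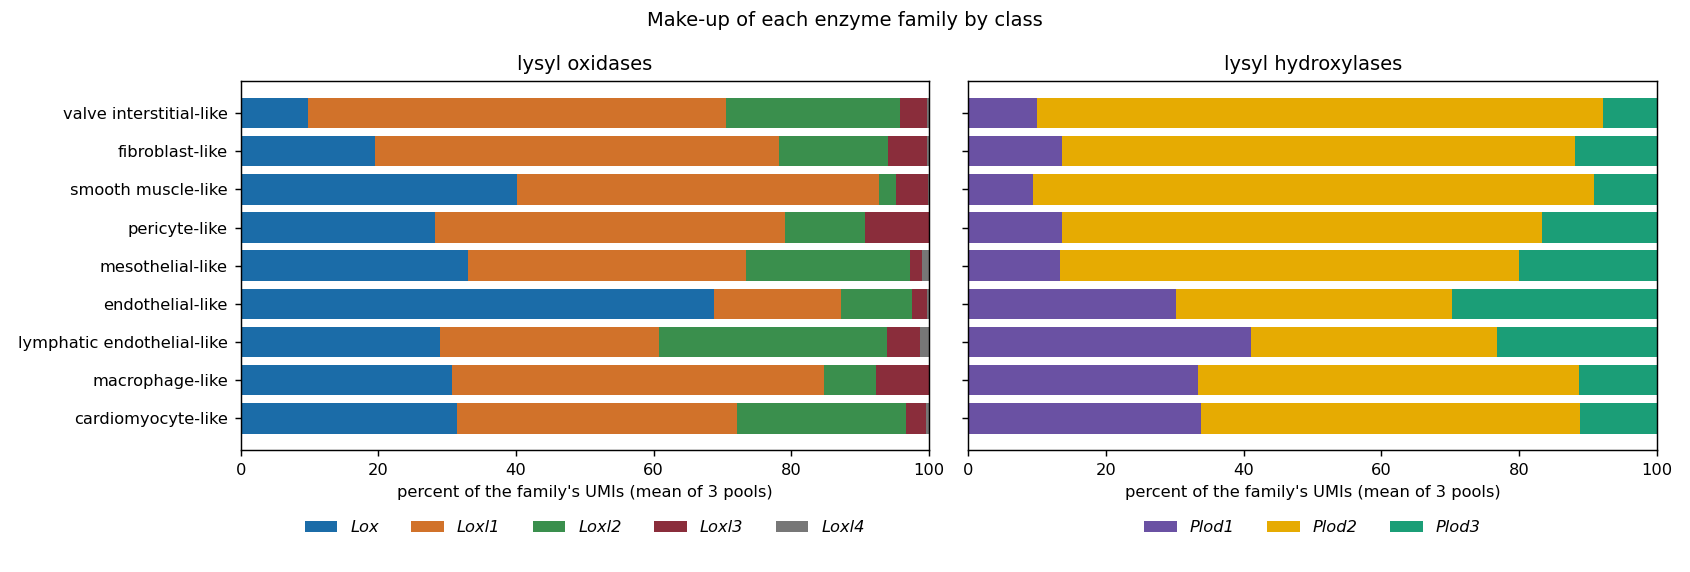
Percent of the UMIs of the lysyl oxidase family (5 genes) and of the lysyl hydroxylase family (3 genes) from each gene, by class of nuclei, as stacked bars of the mean of 3 pools. The Lox block fills 68.7% of the endothelial-like bar and 9.8% of the valve interstitial-like bar, and the Plod2 block fills 82.2% of the valve interstitial-like bar and 40.0% of the endothelial-like bar.

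Within the valve interstitial-like class, the enzymes differed between its 2 clusters. Plod2 was 458, 385 and 402 CPM in the cluster led by Ctnna2 and Abi3bp (994 nuclei) and 212, 208 and 175 CPM in the cluster led by Rmst and Rnf43 (497 nuclei), with no overlap. Loxl3 was 31.5, 25.8 and 25.0 CPM against 6.0, 5.2 and 5.7 CPM, from 100 and 13 UMIs. Both were higher in the Ctnna2-Abi3bp cluster, Plod2 by 1.03 ± 0.10 (adjusted p = 9.3e-08) and Loxl3 by 2.25 ± 0.36 (adjusted p = 6.5e-05). In all, 3 members were higher and 0 lower, where 7.24% of 9949 genes were called higher and 7.94% lower. The third, Loxl2 (0.41 ± 0.13, adjusted p = 0.0391), was lost with DESeq2 (0.735), without the block (0.586) and without replicate 1 (0.413) or replicate 2 (0.127). Lox (0.52, adjusted p = 0.0945), Loxl1 (0.19), Plod3 (0.14) and Plod1 (-0.15) did not pass.

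Endothelial Lox was concentrated in 2 of the 6 endothelial-like clusters tested. Another, led by Kif23 and Top2a, had 27, 10 and 14 nuclei in the 3 pools and was left out, as at least 20 were needed in each. The cluster led by Rtl4 and Cytl1 (758 nuclei) had 306, 298 and 248 CPM and the cluster led by Mannr and Ptchd1 (247 nuclei) 272, 280 and 168 CPM, while the means of the other 4 tested were 49.7 to 76.9 CPM, with no overlap. Against the mean of the other endothelial-like clusters, Lox was higher by 1.80 ± 0.09 in the Rtl4-Cytl1 cluster (adjusted p = 2.0e-14) and by 1.5 ± 0.11 in the Mannr-Ptchd1 cluster (adjusted p = 2.4e-11). It was lower in the other 4, where the mean compared with included these 2 clusters, so those lower calls are not independent of the 2 higher ones. In the Rtl4-Cytl1 cluster, Loxl1 was 32.1 ± 7.3 CPM and the smooth muscle markers summed to 289 to 462 CPM, against a mean of 5165 CPM in the smooth muscle-like class. Its endothelial markers, which also served to name it, summed to a mean of 7541 CPM. The source of the Lox RNA in this cluster was not tested.

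Other enzymes marked other endothelial-like clusters, with 6 members tested over 10297 genes. Plod1 was higher in the Mannr-Ptchd1 cluster by 0.90 ± 0.18 (105, 86.9 and 74.7 CPM; adjusted p = 4.5e-04), which had 11.9% of all genes higher and 10.4% lower. Plod3 was higher in the Kcnc2-Fam155a cluster by 0.75 ± 0.15 (70.9 ± 13.3 CPM; adjusted p = 4.8e-04), together with Loxl2 (0.99 ± 0.24, adjusted p = 2.9e-03), with 16.4% of all genes higher and 8.42% lower, and the Loxl2 call was lost without replicate 1 (0.185). Lox was lower there by 0.51 ± 0.12 (adjusted p = 2.0e-03), a call also lost without replicate 1 (0.0569). The Pcdh17-Aplnr cluster had Loxl1 higher by 1.12 ± 0.19 (74.7 ± 12.9 CPM; adjusted p = 3.1e-05) and Plod2 higher by 0.63 ± 0.16 (adjusted p = 3.2e-03), and Plod3 lower by 0.90 ± 0.22 (adjusted p = 2.7e-03) and Lox by 0.85 ± 0.14 (adjusted p = 3.9e-05), with 16.8% of all genes higher and 11.8% lower. Without replicate 1, the Plod2 (0.157) and Plod3 (0.112) calls there were lost. Plod1 was higher there too (0.50 ± 0.19, adjusted p = 0.0441), but its call was lost under 5 of 6 alternatives (up to 0.497). In the Rtl4-Cytl1 cluster, with 12.3% higher and 8.55% lower, Plod3 was also higher (0.54 ± 0.15, adjusted p = 8.8e-03), a call lost without replicate 1 (0.181) or without replicate 2 (0.0941), and Loxl2 was lower (-0.92 ± 0.29, adjusted p = 0.0202), a call lost without the block (0.0607), without replicate 1 (0.275) and without replicate 2 (0.0613).

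The last 2 of the 6 endothelial-like clusters tested had lower calls alone. The Grid1-Col23a1 cluster (13.2% higher, 15.2% lower) had Lox, Loxl2 and Plod2 lower by 0.56, 1.0 and 0.54. Without replicate 1 the calls of Lox (0.0945) and Loxl2 (0.0596) were lost, and that of Plod2 without replicate 2 (0.116) or replicate 3 (0.0562). The Dlgap2-Cntnap5a cluster (11.0% and 12.5%) had Lox lower by 1.38 ± 0.16 (adjusted p = 9.8e-08) and Plod1 lower by 0.89 ± 0.23 (adjusted p = 4.6e-03), the latter lost without replicate 1 (0.262) or replicate 2 (0.1003). Over the 6 clusters there were 18 member calls, and 8 without replicate 1.

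In the smooth muscle-like class, Lox was 130, 164 and 165 CPM in the cluster led by Mtus2 and Prdm6 (969 nuclei) and 208, 354 and 164 CPM in the cluster led by Ptprz1 and Mylk4 (1258 nuclei). The first was lower in 2 of the 3 pools and level in the third. The difference of -0.65 ± 0.12 (adjusted p = 1.5e-05) was the single call among the members, beside 5.02% of 9029 genes called higher and 6.53% lower, and it was lost without the block (adjusted p = 0.097). Loxl3 (-0.74, adjusted p = 0.0580), Loxl2 (-0.66), Plod3 (-0.39), Plod1 (-0.28), Loxl1 (-0.06) and Plod2 (0.15) did not pass. An unnamed cluster led by Clca3a2 and Pi15 (790 nuclei), with smooth muscle markers at a sum of 3335 CPM, had 138 CPM of Lox, 245 CPM of Loxl1, 22.6 CPM of Loxl2 and 209 CPM of Plod2.

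**Figure D4:**
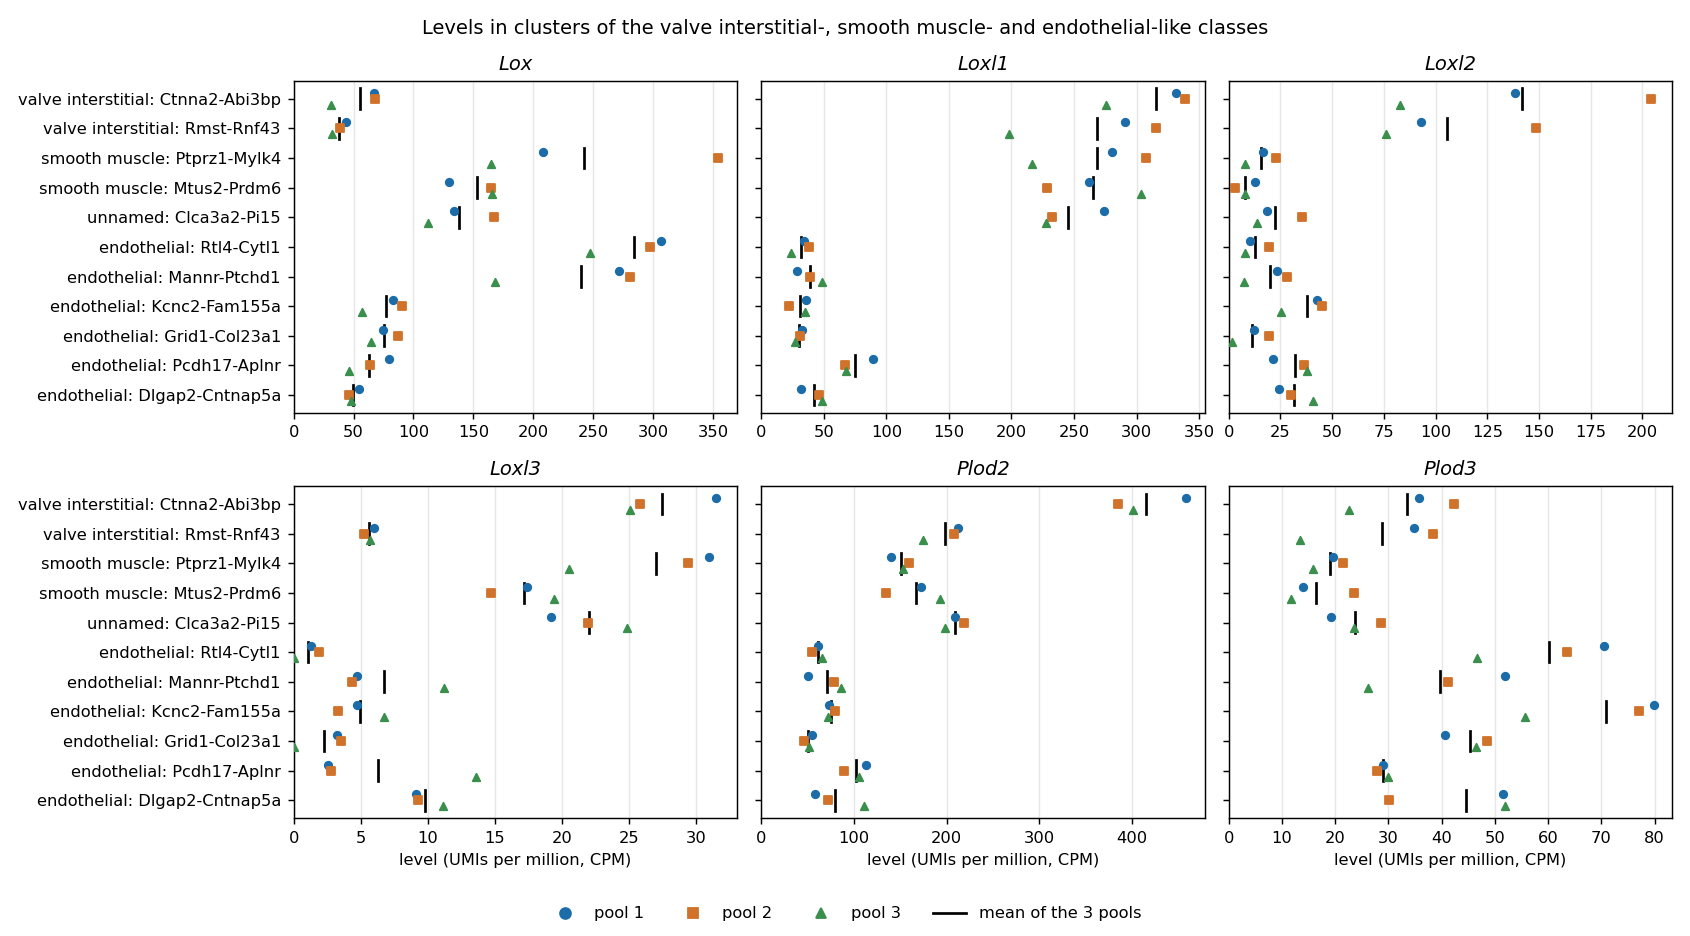
Level of 6 enzyme genes (x axes, CPM, linear) in 11 clusters of nuclei (y axes: 2 valve interstitial-like, 2 smooth muscle-like, the unnamed Clca3a2-Pi15 cluster and 6 endothelial-like), with 1 symbol per pool and a bar at the mean. Lox is high in the Rtl4-Cytl1 and Mannr-Ptchd1 clusters of the endothelial-like class, and Plod2 and Loxl3 are higher in the Ctnna2-Abi3bp than in the Rmst-Rnf43 cluster.

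The rest of the crosslinking pathway gave the setting for these enzymes: 45 genes of proline hydroxylation, chain folding and hydroxylysine glycosylation, procollagen processing, the substrate chains, oxidase partners and copper delivery. All but Col2a1, the type II collagen chain, were tested. Of the 44, 24 were higher and 7 lower in valve interstitial-like nuclei (median difference 0.55), 34 and 2 in fibroblast-like (0.73), 12 and 11 in smooth muscle-like (-0.00), 15 and 13 in endothelial-like (-0.01) and 2 and 40 in cardiomyocyte-like nuclei (-1.84). The shares of all genes called higher and lower in the same fits were 18.0% and 15.7%, 16.7% and 10.8%, 21.4% and 20.7%, 21.5% and 17.3%, and 32.7% and 34.1%.

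Of 10 genes of proline hydroxylation, 6 were higher and 0 lower in valve interstitial-like nuclei, led by P3h2, a prolyl 3-hydroxylase (2.29), and P4ha3, a prolyl 4-hydroxylase subunit (1.34), and all 10 were higher in fibroblast-like nuclei. Of 6 genes of folding and glycosylation, 2 were higher and 0 lower in valve interstitial-like and 4 and 0 in fibroblast-like nuclei. Colgalt2, which adds galactose to hydroxylysine, was higher by 2.66 in fibroblast-like, 1.52 in endothelial-like and 1.5 in valve interstitial-like nuclei and lower by 1.96 in smooth muscle-like nuclei. Of 8 processing genes, 4 were higher and 1 lower in valve interstitial-like nuclei, with Adamts2, a procollagen N-proteinase, higher by 1.33 and Tll1, a relative of the C-proteinase Bmp1, lower by 1.46.

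The substrates divided the classes. Of 9 chains tested, 6 were higher and 3 lower in valve interstitial-like nuclei: Col11a1 (2.91), Col5a2 (2.01) and Col1a1 (0.99), fibrillar collagens, were higher, and Eln, the elastin gene, was lower by 1.07 ± 0.16 (adjusted p = 1.9e-06) along with Col4a1 (-1.0) and Col4a2 (-0.98). Eln was higher in smooth muscle-like nuclei by 2.61 ± 0.11 (adjusted p = 7.5e-18) and in endothelial-like nuclei by 1.30 ± 0.13 (adjusted p = 4.3e-10). In these 3 classes its direction was that of Lox. In fibroblast-like nuclei, 8 of the 9 chains were higher and 0 lower (median difference 1.79, against 0.99 in valve interstitial-like nuclei). Compared directly with fibroblast-like nuclei, valve interstitial-like nuclei had 1 chain higher and 7 lower (median -0.81), beside 8.05% and 8.89% of all genes. Fbln5, the elastic fibre protein that binds LOXL1, was higher by 2.14 in smooth muscle-like and 1.43 in endothelial-like nuclei.

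Of 8 partner genes, 5 were higher and 2 lower in valve interstitial-like nuclei. Fmod, the small proteoglycan fibromodulin that binds lysyl oxidase and collagen, was higher by 3.02 ± 0.15 (adjusted p = 3.7e-16) and by 3.12 against fibroblast-like nuclei, and Postn, periostin, was higher by 2.92 ± 0.13 (adjusted p = 1.55e-17). Fn1, fibronectin, was lower by 0.48 there and higher by 1.77 in endothelial-like nuclei. Of the 3 copper genes, 1 was higher and 1 lower in valve interstitial-like nuclei (median difference -0.19). In smooth muscle-like nuclei 0 were higher and 2 lower. Atp7a, the pump that loads secreted cuproenzymes, was higher by 0.67 in valve interstitial-like and lower by 0.86 in smooth muscle-like nuclei. Between valve interstitial- and fibroblast-like nuclei, 4 of 44 were higher and 15 lower, beside 8.05% and 8.89% of all genes, and 12 in all were called without the pool as a block.

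**Figure D5:**
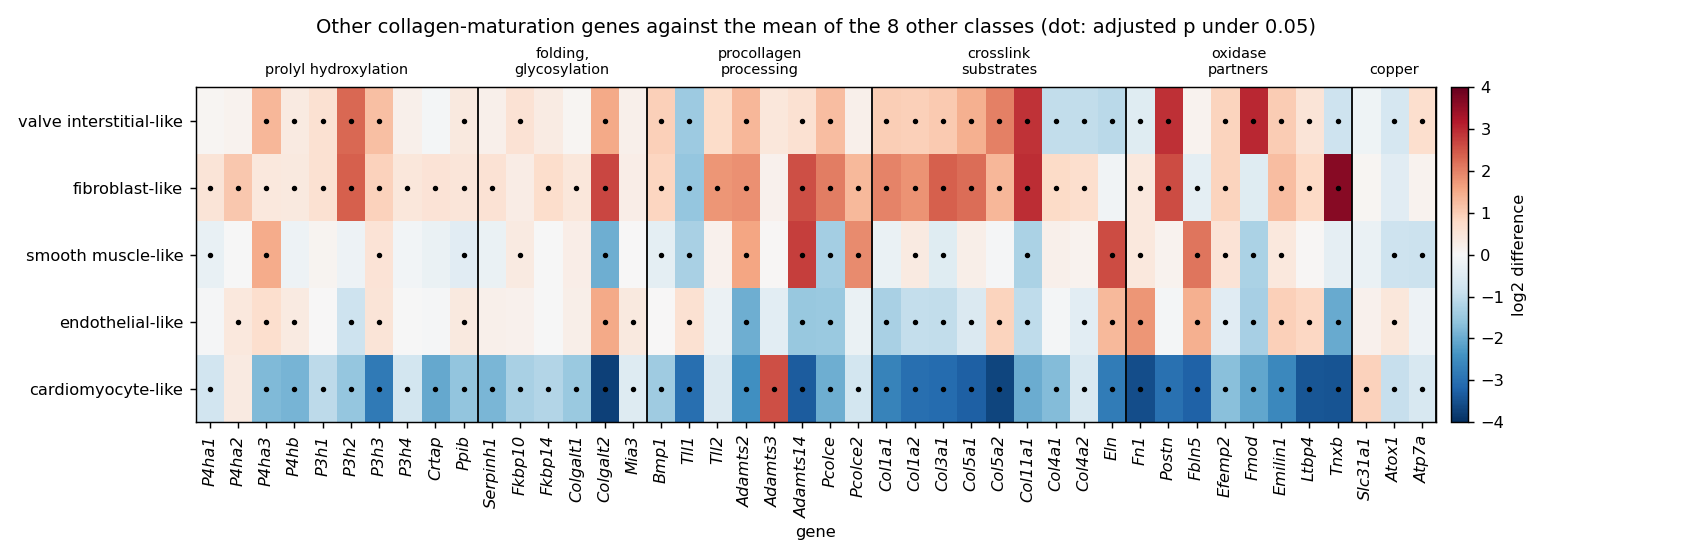
Log2 difference (colour, limited to the range from -4 to 4) of 44 pathway genes (columns, by group) in 5 classes of nuclei (rows) against the mean of the other classes, with a dot where edgeR's adjusted p was under 0.05. The fibroblast-like row has 34 genes higher and the cardiomyocyte-like row 40 lower, and Eln changes colour between the valve interstitial-like and the smooth muscle-like rows.

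The pattern of each enzyme over the 27 libraries (9 classes in 3 pools) was set beside that of 10644 genes by Pearson's r of log2 CPM. Libraries of 1 pool share their preparation and depth, so these values are descriptions. Lox ran closest to Nupr1 (0.96), Cd200 (0.91) and Sulf1 (0.90), Loxl1 to Pamr1 (0.96), Mmp23 (0.95) and Col14a1 (0.93), and Loxl2 to Pcolce (0.91), Ybx3 (0.88) and Fbln1 (0.87). Loxl3 ran closest to Egfr (0.90), Axl (0.89) and Ddr2 (0.88), Plod1 to Ttyh3 (0.88), Ralgds (0.84) and Ugcg (0.82), Plod2 to Adamtsl3 (0.94), Spats2l (0.92) and Olfml1 (0.91), and Plod3 to Ifitm2 (0.93), Ddah2 (0.92) and Ehd2 (0.90). Among the members, the closest pair was Loxl1 and Plod2 (0.89), followed by Loxl1 and Loxl3 (0.86), and Plod1 and Plod2 had -0.38.

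EGFP RNA from the Scx allele allowed 1 comparison inside the valve interstitial-like class. Of its nuclei, 155 had an EGFP UMI, 11.3%, 13.6% and 6.25% in the 3 pools, against 1.56% to 1.94% of cardiomyocyte-like and 1.64% to 3.91% of haemoglobin-cluster nuclei. Mesothelial-like (4.48% to 8.99%) and endothelial-like nuclei (3.74% to 6.57%) lay between and overlapped the lowest valve interstitial-like pool. These shares were not thinned, at median depths of 3596 UMIs in valve interstitial-like, 9917 in mesothelial-like and 2120 in haemoglobin-cluster nuclei. In CPM, the EGFP mean was 29.97 in valve interstitial-like and 11.7 in endothelial-like nuclei. It was 9.05 CPM in the haemoglobin cluster, above the 7.17 CPM of mesothelial-like and 3.04 CPM of cardiomyocyte-like nuclei. Each of the 155 nuclei was matched to a nucleus of the same class and pool with no EGFP UMI and the nearest UMI total, giving 75, 52 and 28 pairs. Nuclei without an EGFP UMI may still carry the RNA, as its reading was sparse.

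Loxl2 was 185, 310 and 155 CPM in nuclei with an EGFP UMI and 78.0, 166 and 55.6 CPM in their matches, higher in each of the 3 pools although the ranges overlapped. It was higher by 1.13 ± 0.24 (adjusted p = 0.0467), the single call among the 5 members tested, beside 0.222% of 5411 genes called higher. That call was lost without the block (adjusted p = 0.713), with DESeq2 (1), without any 1 of the replicates (0.111, 0.194 and 0.768) and where matches were drawn within the same cluster (0.72, adjusted p = 0.744). Plod2, at 445 ± 40.6 against 299 ± 47.6 CPM, was also higher in all 3 pools by 0.59 ± 0.18 but did not pass (adjusted p = 0.278). Loxl1 was higher in all 3 pools as well, by 0.21 ± 0.19 (adjusted p = 0.885), and so was Loxl3, with 34 against 6 UMIs, which was under the filter. Lox (0.12) and Plod1 (-0.00) did not pass, and Plod3 (22 against 25 UMIs) and Loxl4 (0 against 1) were under the filter.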

How the data were processed

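Nuclei of 3 pools of postnatal day 1 aortic valve structures were measured. The values are deposited as raw UMI counts; per the file headers, Cell Ranger 7.1.0 made the matrices. Per the submitters' processing notes, Cell Ranger 7.0.1 and 7.1.0 and build GRCm39 were used; the annotation and the counting of introns are not given in the sources used here. The deposited tables held 10580, 5949 and 4611 nuclei with 49918251, 25341316 and 21254247 UMIs, of which 28.6%, 41.8% and 14.1% had over 5% mitochondrial UMIs. Pools shared 99 (pools 1 and 2), 59 (1 and 3) and 44 (2 and 3) barcodes.

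Scrublet's automatic threshold marked 0, 2 and 2 doublets, so the top scores, 0.8% per 1000 deposited nuclei, were marked instead (597, 154 and 138). Scanpy 1.11.5 and leidenalg 0.10.2 clustered the rest (2000 variable genes, 30 components, 15 neighbours, resolution 1) without the members, pathway list, EGFP, Scx, 12 cell cycle, 6 sex and 13 mitochondrial genes. A cluster was named when at least 3 markers of 1 of 19 classes were in at least 10% of its nuclei and 2-fold higher than elsewhere (pseudocount 5 CPM), and stayed unnamed where markers of another class outnumbered them. That last condition and the doublet threshold were set after seeing the data.

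Counts were summed per pool and class with at least 20 nuclei in every pool, and tested with edgeR 4.0.16 in R 4.3.3 (TMM, filterByExpr, quasi-likelihood F test, Benjamini-Hochberg over all genes, threshold 0.05), with the pool as a block, since each pool was 1 library that holds all its classes. The standard error is the log2 difference over the square root of F. Per the labels the 3 pools are separate pooled replicates, and whether they come from separate litters or days is not given. As the block takes up shifts common to a pool, the spread behind the p-values is how far differences between classes or clusters varied over these 3 pools. It is 1 estimate shared by all classes or clusters of a fit, so it need not be the spread of the difference named. The shared spread may be partly technical. On simulated counts for the valve interstitial-like class (13821 genes, 200 changed), 3.5% of changes of 1.5-fold, 64.5% of 2-fold and 92.5% of 4-fold were recovered. Apart from these changes the simulated classes shared 1 mean per gene, with 1 fixed spread for all genes and no pool effect. In the data 2494 genes were called higher and 2175 lower in this class, so these rates need not hold there. Shares of nuclei were taken after thinning to 1000 UMIs unless given as unthinned, and shares with an EGFP UMI were not thinned. The rule for named genes took all 8 members, and a member with no value in a comparison did not pass its test or was under the filter. Likeness lists give the 3 genes with the highest r among those with a mean of at least 10 CPM. Members, lists and tests were chosen with earlier results of these data known. Alternatives were DESeq2 1.42.0, no block, no filter, each pool left out, 5 classes only, 2000 UMIs, 10% mitochondrial UMIs, resolution 2 and other placements of unnamed clusters.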

Additional observations from a re-analysis of the deposited data

How the results depend on the processing

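Of 54 called differences of members between classes, 43 kept their direction and call under all alternatives run and none reversed. Of 22 calls between clusters, 9 did so and none reversed. Without the replicate block, the pathway list had 15 calls in the smooth muscle-like class (23 with it) and 12 between the valve interstitial- and fibroblast-like classes (19 with it), and member calls fell from 1 to 0 between the smooth muscle-like clusters and from 1 to 0 in the EGFP comparison. The EGFP comparison also gave 0 with DESeq2, 0 matched within cluster, 0 to 0 leaving out each replicate and 2 without a filter on low counts (Loxl2 and Loxl3). With 5 classes in the fit, 7 members were called in the valve interstitial-like class (4 with 9 classes), and with 10% mitochondrial UMIs allowed 5 were called against fibroblast-like nuclei (3 with 5%). Leaving out each replicate gave 2 to 4 member calls between smooth muscle- and fibroblast-like nuclei (4 with all) and 8 to 17 between endothelial-like clusters (18 with all). The Plod2 share in valve interstitial-like nuclei was 54.7% without thinning and 41.0% at 2000 UMIs. In cardiomyocyte-like nuclei at resolution 2, Lox was lower by 1.88 and Loxl1 by 2.29. With 5 classes, Loxl3 was higher by 2.13 in fibroblast-like and 1.65 in smooth muscle-like nuclei.

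All reversals were of uncalled values. Against the mean of the other classes, fibroblast-like Plod1 became 0.0035 with 5 classes, and Plod3 -0.16 with 10% mitochondrial UMIs and -0.046 at resolution 2. Leaving out each replicate, Plod3 ran from -0.018 to 0.16 between valve interstitial- and fibroblast-like nuclei, Loxl1 from -0.11 to 0.092 between valve interstitial- and smooth muscle-like nuclei, and Loxl1 from -0.28 to 0.031 and Plod2 from -0.24 to 0.0076 between smooth muscle- and fibroblast-like nuclei. Loxl1 in the second pair was also 0.00067 at 2000 UMIs, 0.048 at resolution 2 and 0.066 with the Clca3a2 cluster counted as smooth muscle, a setting chosen after seeing the data. In the third, Loxl1 was 0.031 with 10% mitochondrial UMIs, Loxl3 0.042 at 2000 UMIs and Plod2 0.0060 with that cluster counted. In the EGFP comparison, Lox ran from -0.21 to 0.25 leaving out each replicate and was -0.11 matched within cluster, and Plod1 was 0.0030 without the block and 0.0018 without replicate 3. The cause was not tested for any of these. Depth limits Loxl3 and Loxl4 most. On simulated counts, whose settings were simpler than the data, 2-fold differences of single genes were recovered incompletely.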

Other observations

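Adamts3, a procollagen N-proteinase, and Slc31a1, a copper importer, were the 2 pathway genes higher in cardiomyocyte-like nuclei, by 2.58 and 0.91 on the log2 scale, where all 7 tested enzymes were lower.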
